A study of Mus musculus with 8 samples.

Results

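The acetylcholine receptor of muscle and 4 further genes that muscle fibres switch on after loss of their nerve were followed in gastrocnemius muscle depleted of MYTHO. The genes were the receptor subunits *Chrna1*, *Chrnb1*, *Chrnd*, *Chrne* and *Chrng*, together with *Musk*, *Ncam1*, *Gadd45a* and *Runx1*. A gene was taken when its symbol stood in the symbol cell of a row of the array table, and the row with the highest mean was to be kept where several rows matched. Each of the 9 genes matched 1 probe set, a group of short probes summarised into a single value, of 22206 probe sets in all. Muscles came from male C57/Bl6j mice, injected at about 10 weeks of age per the design text and labelled as 14 weeks old, and were collected 3 weeks after injection. In the AAV sh-RNA MYTHO group, an adeno-associated virus (AAV) delivered a short hairpin RNA against the transcript of *D230025D16Rik*, the gene that codes for MYTHO. In the AAV sh-RNA scrmb group, the same kind of virus delivered a scrambled hairpin to the opposite leg, so that both groups carried a virus, an injection and a U6 promoter, which is not restricted to muscle fibres. Each group held 4 muscles. The arrays are named here by group and animal, with letters A to D given in the order of the animal numbers in the column names, and scrmb A and MYTHO A are the legs of 1 mouse.

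At the neuromuscular junction, acetylcholine released by the motor axon opens a channel built of alpha, beta, delta and epsilon subunits in adult muscle. In the fetus and after denervation the gamma subunit takes the place of epsilon, and subunit genes become active along the whole fibre rather than only in the nuclei under the endplate. In that setting the deacetylase HDAC4 and the transcription factor myogenin relay the loss of electrical activity to the receptor genes, and myogenin binds E-boxes in their promoters. Synaptic nuclei use a different element, the N-box, which ETS-family factors bind downstream of neuregulin and agrin.

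Because these elements are how the subunit genes are known to respond to nerve and activity, the promoters of the alpha, gamma and epsilon subunits are shown. RefSeq promoters, running from 250 bases before to 50 bases after a start site, were found for 7 of the 9 genes on GRCm38.p6, the assembly also called mm10. The sequences are written 5′ to 3′ on the strand of the gene and hold only bases outside the annotated gene. Capitals mark E-boxes, the letters CANNTG, which read as an E-box on both strands. The *Chrna1* stretch is chr2:73580339-73580588 on the minus strand, that of *Chrng* is chr1:87205561-87205810 on the plus strand, and that of *Chrne* is chr11:70619214-70619444 on the minus strand.
Chrna1: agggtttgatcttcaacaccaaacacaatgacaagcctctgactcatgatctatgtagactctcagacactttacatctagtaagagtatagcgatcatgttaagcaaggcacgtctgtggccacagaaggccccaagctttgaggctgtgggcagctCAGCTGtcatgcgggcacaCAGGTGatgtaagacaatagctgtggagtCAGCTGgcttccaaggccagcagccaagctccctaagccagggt
Chrng: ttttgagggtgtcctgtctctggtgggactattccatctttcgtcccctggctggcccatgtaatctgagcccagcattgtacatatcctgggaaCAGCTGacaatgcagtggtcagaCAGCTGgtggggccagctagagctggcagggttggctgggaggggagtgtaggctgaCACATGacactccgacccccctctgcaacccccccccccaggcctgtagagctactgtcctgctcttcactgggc
Chrne: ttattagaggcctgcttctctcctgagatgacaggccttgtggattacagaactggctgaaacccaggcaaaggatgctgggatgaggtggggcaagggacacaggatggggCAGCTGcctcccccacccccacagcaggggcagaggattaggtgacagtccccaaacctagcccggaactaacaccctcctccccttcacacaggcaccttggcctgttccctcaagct
The *Chrna1* window held 3 E-boxes, with first bases at -92, -73 and -44 from the start site, and the *Chrng* window held 3, at -155, -132 and -75. *Chrne* held 1 E-box, at -138, and also 1 N-box, the letters CCGGAA searched on both strands, at -76. *Chrnb1* and *Musk* held 3 E-boxes each and *Gadd45a* held 1. Of the 2 *Runx1* start sites in the table, the distal one held 3 E-boxes and the other none. An N-box was also found in *Gadd45a*, at -23, and at the *Runx1* start without an E-box, at -106. No E-box and N-box overlapped. Over all 32851 promoters of the same length, 72.3% held at least 1 E-box, 17.6% held 3 or more, and 14.9% held an N-box, so a match is a description of the letters and not a site of binding.

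**Figure D1:**
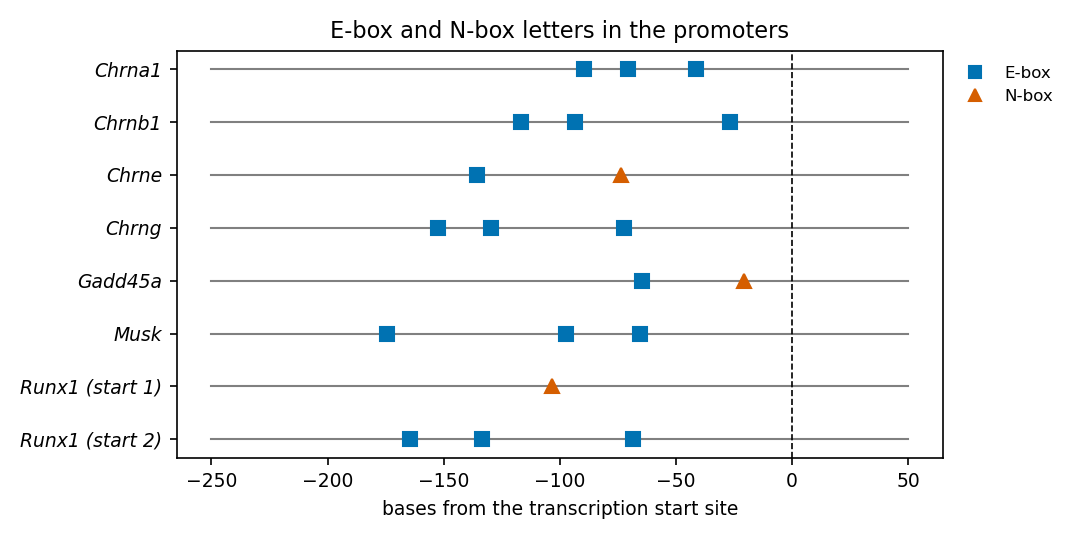
Positions of E-boxes (squares) and N-boxes (triangles) in the RefSeq promoters of 7 of the genes, with both *Runx1* start sites; the x axis is the distance in bases from the transcription start site, and the grey line is the window searched. *Chrna1* and *Chrng* hold 3 E-boxes each, and *Chrne* holds 1 E-box and 1 N-box.

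The knockdown itself was read on the *D230025D16Rik* probe set. Its log2 signal was 11.12 ± 0.26 (SD, n = 4) with the scrambled hairpin and 8.31 ± 0.33 (SD, n = 4) with the MYTHO hairpin. The difference was -2.81 with a limma adjusted p of 0.00044, and the 2 groups did not overlap (exact permutation p = 0.0286, two-sided, the smallest that 70 relabellings allow). Fast-fibre markers were bright on every array, as in *Ckm*, muscle creatine kinase, at 18.00 to 18.37. Array medians of log2 signal ran from 6.39 to 6.47. Array scrmb A had a higher mean over 8 slow-fibre genes (13.70) than the other scrmb arrays (11.61 to 11.94), and MYTHO D a lower one (11.68) than the other MYTHO arrays (14.43 to 14.88), and *Chrna1* and several other genes below are also given without these arrays. The signals come from whole muscle, in which fewer cells of a type and less RNA per cell cannot be told apart.

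Of the 9 receptor and denervation genes, *Chrna1* alone differed between the groups at an unadjusted p under 0.05, and none passed after Benjamini-Hochberg adjustment over all probe sets (limma). Log2 fold changes, MYTHO minus scrmb, were above 0 in 9 of 9 genes, with a median of 0.34 against -0.005 over all probe sets, of which 49.3% were above 0. Single values ran from 0.01 for *Chrng* to 0.91 for *Chrna1*. Over all probe sets 4.81% were higher and 7.58% lower at an unadjusted p under 0.05, beside 1 and 0 of these genes. The adjusted threshold called 0.00901% higher and 0.018% lower. At the threshold of the study, a 2-fold change with an unadjusted p under 0.05, 0.261% were higher and 1.25% lower, and none of the 9 passed. The groups did not overlap in 1 of the 9 genes, *Chrna1*, against 2.59% of all probe sets that were higher without overlap and 3.87% that were lower.

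**Figure D2:**
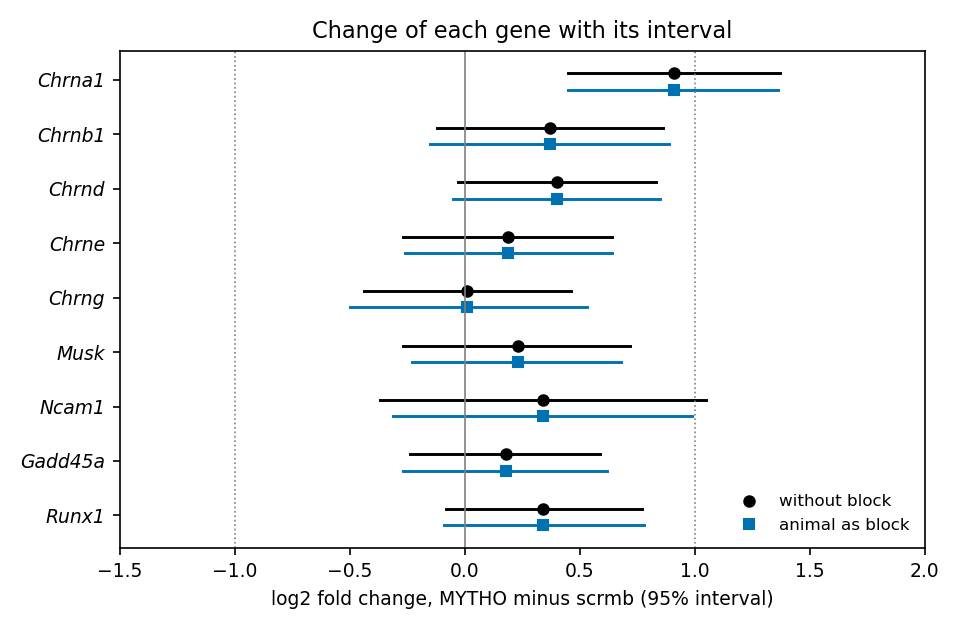
Log2 fold change of each gene, MYTHO minus scrmb, with its 95% interval from limma without a block (black circles) and with animal as a block (blue squares); dotted lines mark a 2-fold change. All 9 estimates lie above 0, and the interval of *Chrna1*, 0.45 to 1.37 without the block, leaves 0 out.

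*Chrna1* encodes the alpha subunit, which carries most of the acetylcholine binding site. With the scrambled hairpin its log2 signal was 6.57, 6.20, 6.59 and 6.30 in animals A to D, and with the MYTHO hairpin it was 7.57, 7.55, 7.37 and 6.80. Every MYTHO array lay above every scrmb array, and the lowest MYTHO value was that of animal D. The difference was 0.91 (SE 0.21, 95% interval 0.45 to 1.37), or 1.88-fold, with an unadjusted p of 0.00105 and an adjusted p of 0.127 (limma). Within animals the MYTHO leg was higher by 1.00, 1.35, 0.78 and 0.50. With the animal as a block the unadjusted p was 0.0015, beside 4.94% of all probe sets that were higher at 0.05 in that fit, and the adjusted p was 0.164. The difference was 1.08 without MYTHO D, past 2-fold, 0.96 without scrmb A, and 1.13 without both. The gene lies on chromosome 2 at 73563281 to 73580338.

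Other subunits of the adult receptor had smaller differences. *Chrnb1*, the beta subunit, had log2 signals of 9.76, 10.35, 9.68 and 10.30 in the scrmb legs and 10.84, 10.33, 10.12 and 10.28 in the MYTHO legs. The groups overlapped, and only animals A and C were higher on the MYTHO side, by 1.08 and 0.44. The difference was 0.37 (95% interval -0.12 to 0.86, unadjusted p = 0.128, adjusted p = 0.547, limma), and it was 0.22 without MYTHO A. *Chrnd*, the delta subunit, had 5.40, 5.43, 5.51 and 5.49 in the scrmb legs and 5.49, 6.31, 5.89 and 5.73 in the MYTHO legs. The scrmb values were close together, while MYTHO B stood highest and MYTHO A lay within the scrmb range. The difference was 0.40 (95% interval -0.03 to 0.83, unadjusted p = 0.0665, adjusted p = 0.442, limma), with the MYTHO leg higher in 4 of 4 animals. It was 0.25 without MYTHO B. Without MYTHO A it was 0.52 with an unadjusted p of 0.0261, and without both arrays of animal A it was 0.50 with 0.0496.

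The fetal gamma and adult epsilon subunits were compared because their exchange marks denervated fibres. *Chrng* had log2 signals of 3.26, 3.91, 3.61 and 3.81 in the scrmb legs and 3.96, 3.70, 3.66 and 3.32 in the MYTHO legs. The groups covered nearly the same range, with 2 animals higher and 2 lower. The difference was 0.01 (95% interval -0.44 to 0.46, adjusted p = 0.99, limma), and its sign turned without MYTHO A (-0.09) or without scrmb A (-0.12). This probe set was dim, at percentile 1.56 of mean log2 signal, so a low level of *Chrng* transcript may not be measurable on it. *Chrne* had 9.72, 9.64, 9.20 and 9.83 in the scrmb legs and 9.45, 10.06, 9.65 and 9.98 in the MYTHO legs. These groups overlapped as well, with 3 of 4 animals higher on the MYTHO side and a difference of 0.19 (95% interval -0.27 to 0.64, adjusted p = 0.771, limma). It ran from 0.06 without scrmb C to 0.30 without MYTHO A, and leaving out MYTHO B or MYTHO D gave 0.10 or 0.12. The log2 signal of *Chrng* minus that of *Chrne* was -5.95 ± 0.38 (SD, n = 4) in the scrmb legs and -6.12 ± 0.50 (SD, n = 4) in the MYTHO legs. The exact permutation p for this change of -0.17 was 0.629, two-sided. Exact sign flips within the 4 animals gave p = 0.625, where 0.125 is the smallest possible. Without 1 array the change ran from -0.39 (MYTHO A) to 0.003 (MYTHO D), and it was -0.56 without both arrays of animal A. Only the change in this quantity can be read, since 2 probe sets differ in brightness for reasons of their own, and with *Chrng* so dim these tests cannot tell whether gamma replaced epsilon. *Chrng* and *Chrnd* are neighbours on chromosome 1, at 87205811 to 87211835 and 87190597 to 87200070, with 5740 bases between them, while *Chrnb1* and *Chrne* both lie on chromosome 11, at 69784036 to 69795966 and 70614883 to 70619213.

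**Figure D3:**
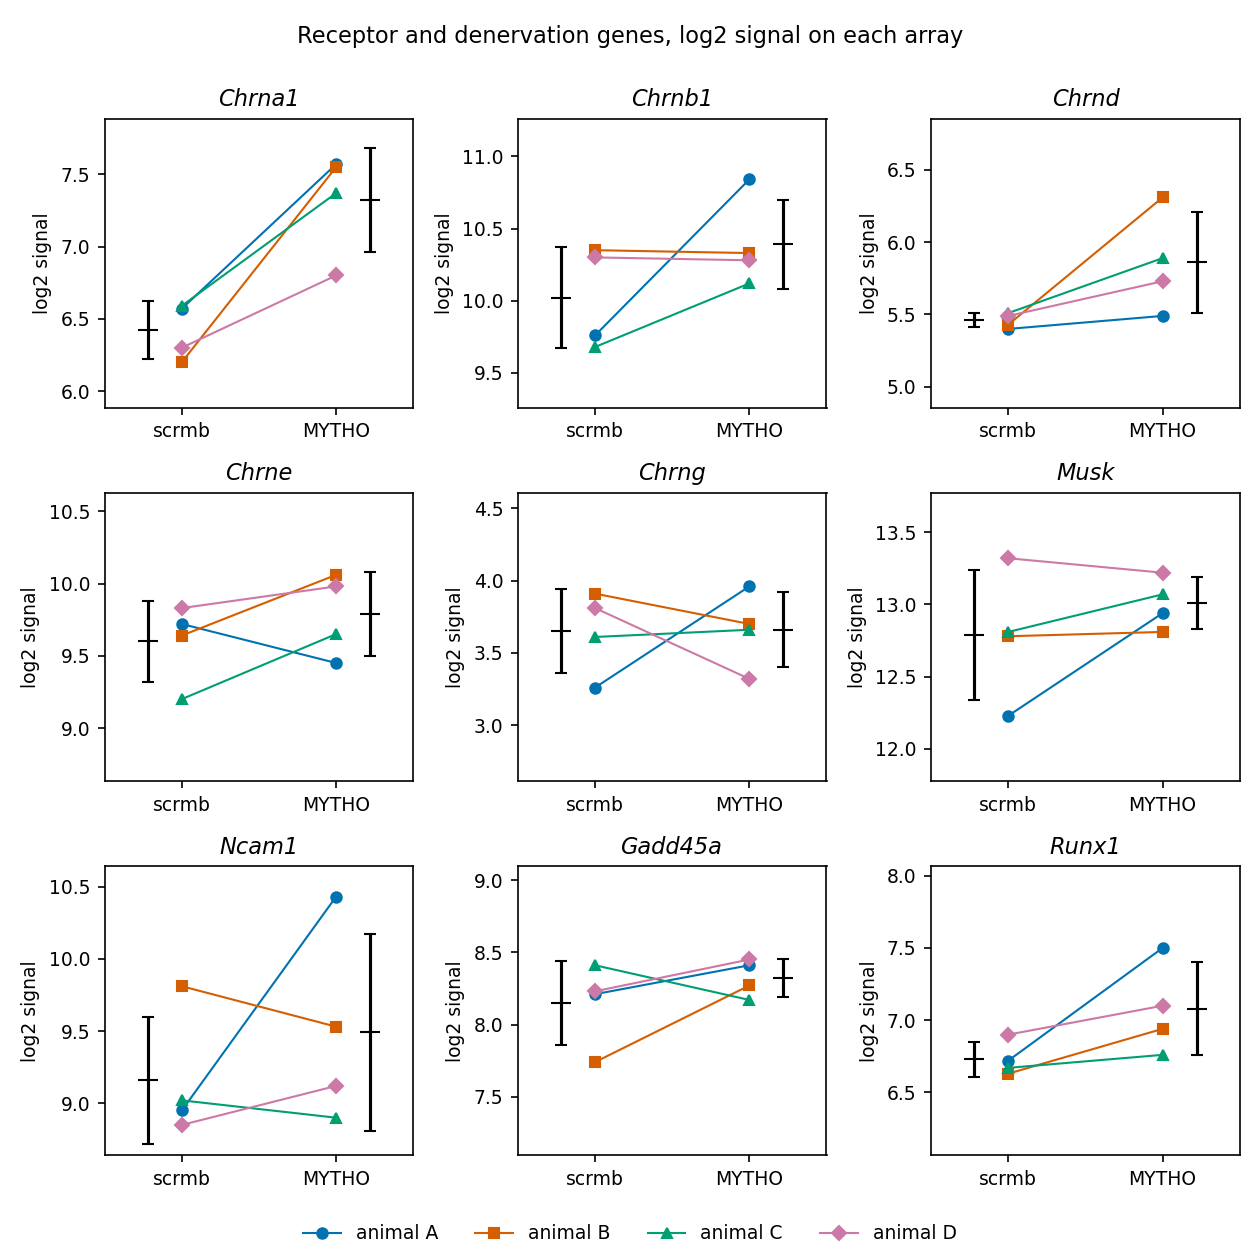
Log2 signal of each gene on each array, scrmb at left and MYTHO at right, with a line joining the legs of each animal and the mean with SD in black; every panel spans 2 log2 units. The groups separate for *Chrna1* only, and MYTHO A is the highest array for 5 of the 9 genes.

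Of the 4 genes outside the receptor, *Musk* encodes the receptor tyrosine kinase that agrin activates through LRP4 and that gathers receptors under the nerve. Its log2 signals were 12.23, 12.78, 12.81 and 13.32 in the scrmb legs and 12.94, 12.81, 13.07 and 13.22 in the MYTHO legs. The lowest and the highest values both belonged to scrmb legs, and the difference was 0.23 (95% interval -0.27 to 0.72, adjusted p = 0.747, limma). It was 0.04 without scrmb A, 0.40 without scrmb D, and -0.03 without scrmb A and MYTHO D. *Runx1*, a transcription factor that protects denervated fibres from wasting, had 6.72, 6.63, 6.67 and 6.90 in the scrmb legs and 7.50, 6.94, 6.76 and 7.10 in the MYTHO legs. MYTHO A stood highest and MYTHO C within the scrmb range. The MYTHO leg was higher in 4 of 4 animals, by 0.09 to 0.78, and the difference was 0.34 (95% interval -0.08 to 0.77, unadjusted p = 0.101, adjusted p = 0.506, limma). It was 0.20 without MYTHO A and 0.45, with an unadjusted p of 0.0463, without MYTHO C.

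*Ncam1*, an adhesion molecule that spreads over the fibre surface after denervation and also marks regenerating fibres, satellite cells and Schwann cells, varied most among the 9 genes together with *Chrna1*. Its log2 signals were 8.95, 9.81, 9.02 and 8.85 in the scrmb legs and 10.43, 9.53, 8.90 and 9.12 in the MYTHO legs. MYTHO A was the highest of the 8 arrays and scrmb B came next, so the groups overlapped. The difference was 0.34 (95% interval -0.37 to 1.05, adjusted p = 0.73, limma), 0.03 without MYTHO A, 0.54 without MYTHO C and 0.56 without scrmb B. *Gadd45a*, a stress protein that remodels chromatin in denervated and atrophying muscle, had 8.21, 7.74, 8.41 and 8.23 in the scrmb legs and 8.41, 8.27, 8.17 and 8.45 in the MYTHO legs. Apart from scrmb B, the arrays of both groups lay close together, and the difference was 0.18 (95% interval -0.24 to 0.59, adjusted p = 0.76, limma), or 0.04 without scrmb B. *Musk* lies on chromosome 4 at 58285729 to 58377848, *Runx1* on chromosome 16 at 92601466 to 92826074, *Ncam1* on chromosome 9 at 49502129 to 49799393 and *Gadd45a* on chromosome 6 at 67035096 to 67037407.

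The 9 genes were not spread evenly over the animals. In animal A, 8 of the 9 were higher in the MYTHO leg, with a median difference of 0.71, where 48.3% of all probe sets were higher. The median differences in animals B, C and D were 0.31, 0.26 and 0.20, with 6, 7 and 6 genes higher, where 50.5%, 47% and 48.3% of all probe sets were higher. MYTHO A was the highest array for *Chrna1*, *Chrnb1*, *Chrng*, *Ncam1* and *Runx1*, and for 9.95% of all probe sets. No MYTHO array was the lowest for any of the 9, where each was the lowest for 10.6% to 15.3% of all probe sets. Without both arrays of animal A, *Chrna1* differed by 0.88 (unadjusted p = 0.00598, limma), *Ncam1* by -0.04, *Chrng* by -0.22 and *Chrnb1* by 0.13.

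Marker genes of other cells and fibres were read beside *Chrna1*. Of the 5 genes of the regenerating-fibre list, *Myh8* was saturated on all arrays, and the other 4 (*Myh3*, *Mymk*, *Mymx* and *Myog*) had a mean log2 signal of 5.47 to 5.66 in the scrmb legs and of 6.83, 6.08, 5.77 and 5.71 in MYTHO legs A to D. Animal A had the largest difference in this mean, 1.17, and animal D the smallest, 0.14. *Mymk*, which encodes a membrane protein of myoblast fusion and was singled out after its values were seen, was at 7.74 on MYTHO A and at 5.46 to 6.13 on the other arrays. Over the 8 slow-fibre genes the MYTHO leg exceeded the scrmb leg by 1.18, 2.52, 2.87 and 0.08 in animals A to D. Animal D thus had the smallest difference both in this mean and in *Chrna1* (0.50, against 0.78 to 1.35), and MYTHO D the lowest value of its group in both. The largest differences did not fall together. Animal C was largest in the slow-fibre mean (2.87, with 0.78 in *Chrna1*), animal A in the regenerating-fibre mean and animal B in *Chrna1* (1.35). Array scrmb A had the highest slow-fibre mean of its group, with *Chrna1* at 6.57 there. On scrmb C, with a slow-fibre mean of 11.94, *Chrna1* was at 6.59. The 9 Schwann-cell genes had means of 6.73 to 8.27 in the scrmb legs and 6.80 to 7.38 in the MYTHO legs, with scrmb C highest. The 9 macrophage and blood genes ran from 6.84 to 7.25 and from 6.84 to 7.15, and the 5 satellite-cell genes from 5.66 to 5.83 and from 5.79 to 5.98. The part of the regenerating, slow-fibre and other cell markers in the *Chrna1* difference was not tested.

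**Figure D4:**
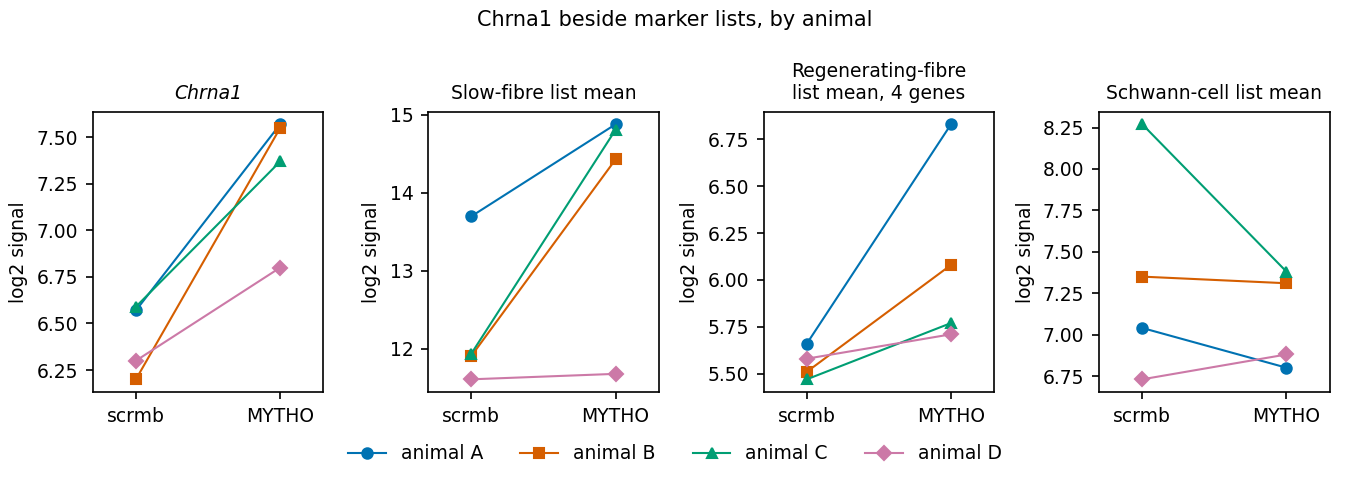
Log2 signal of *Chrna1* and mean log2 signal of the slow-fibre, regenerating-fibre and Schwann-cell lists, by animal, with scrmb at left and MYTHO at right of each panel; the y axes differ between panels. *Chrna1* is higher in the MYTHO leg of all 4 animals, and animal D has the smallest difference in *Chrna1* (0.50), in the slow-fibre mean (0.08) and in the regenerating-fibre mean (0.14). The largest difference is that of animal B in *Chrna1* (1.35), C in the slow-fibre mean (2.87) and A in the regenerating-fibre mean (1.17).

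The genes whose profile over the 8 arrays lay nearest to *Chrna1* and *Ncam1* were sought among 10527 brighter probe sets, by the root mean square difference between mean-centred log2 signals. Nearest to *Chrna1* were *Myadm* at 0.16, *Myom3*, which encodes a protein of the sarcomeric M-band, at 0.18, and *Slc10a3* at 0.18, where the spread of *Chrna1* about its own mean was 0.52. Their log2 fold changes were 0.84, 0.85 and 1.08, with adjusted p of 0.172, 0.197 and 0.0746 (limma). Nearest to *Ncam1* were *Rhobtb1* at 0.16, *Tmsb10*, an actin monomer binder, at 0.17 and *Vim*, the intermediate filament of mesenchymal and regenerating cells, at 0.20. All 3 were highest on MYTHO A, at 8.96, 10.53 and 12.54. The arrays share these samples, and the likeness is a description.

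Partners of the receptor at the endplate, 19 genes in all, had a median log2 fold change of 0.11, with values of -0.23 to 0.81. *Etv5*, an ETS factor that synaptic nuclei need for subunit transcription, was the only gene of this list past an unadjusted p of 0.05. Over all probe sets 4.81% were higher at that p. It had 9.40, 8.43, 7.80 and 8.70 in the scrmb legs and 9.02, 9.87, 9.74 and 8.94 in the MYTHO legs. Animals B, C and D were higher on the MYTHO side and animal A lower, and the difference was 0.81 (unadjusted p = 0.0299, adjusted p = 0.346, limma). It passed in 4 of the 8 fits that left out 1 array, not without MYTHO B, MYTHO C, scrmb B or scrmb C, and was 1.23 without scrmb A and MYTHO D. The scaffold and its regulators gave values near 0: *Rapsn*, which anchors the receptor, 0.19, *Agrn* 0.00, *Lrp4* 0.11 and *Dok7*, the adaptor of MuSK, -0.16.

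Among 15 other genes of the denervation response, 3 were higher at an unadjusted p under 0.05 and none lower, beside 4.81% and 7.58% of all probe sets. Their median was 0.16, with a range of -0.49 to 1.07. *Myog*, which encodes myogenin, had 5.13, 4.98, 4.87 and 5.45 in the scrmb legs and 6.21, 6.05, 5.19 and 5.57 in the MYTHO legs. MYTHO A, B and D stood above every scrmb array, D by the least, and MYTHO C lay within the scrmb range. The difference was 0.65 (unadjusted p = 0.0204, adjusted p = 0.307, limma), and 0.50 with an unadjusted p of 0.0964 without both arrays of animal A. An unadjusted p under 0.05 was kept in 5 of the 8 fits without 1 array for *Myog* (lost without MYTHO A, MYTHO B or scrmb C), in 7 for *Ampd3* (lost without MYTHO A) and in 2 for *Gdf5* (kept without MYTHO A or scrmb D). *Ampd3*, AMP deaminase, differed by 1.07 (unadjusted p = 0.0173, adjusted p = 0.292), higher in 3 of 4 animals, with scrmb legs from 8.87 to 10.75 and MYTHO legs from 10.48 to 11.70. The difference was short of 2-fold without scrmb C (0.69), MYTHO A (0.87) or MYTHO B (0.98). It was 1.52 without scrmb A and MYTHO D, a fit added after seeing the data. *Gdf5*, a BMP-family ligand made by denervated muscle, differed by 0.54 (unadjusted p = 0.0302, adjusted p = 0.347), was higher in 4 of 4 animals, and was at 0.41 without scrmb A and MYTHO D. *Hdac4* overlapped widely, at 8.91 to 10.05 in the scrmb legs and 8.93 to 10.18 in the MYTHO legs, with a difference of -0.05 (adjusted p = 0.97). The ubiquitin ligases of atrophy *Trim63* and *Fbxo32*, neither past the test, had values of -0.49 and -0.19. With the animal as a block *Cdkn1a*, a cell cycle inhibitor, also had an unadjusted p under 0.05 (0.01 with the block and 0.0868 without it, limma, for a difference of 0.62).

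Neuronal nicotinic subunits, 11 genes that muscle fibres are not known to use at the endplate, had a median of -0.06. Of these, 4 had a positive value and 7 a value below 0. Their probe sets were dim, at percentiles 2.5 (*Chrna5*) to 42.6 (*Chrna9*) of mean log2 signal, so a change in these transcripts may not be measurable. *Chrna6* was lower, from 5.66, 6.05, 6.01 and 6.03 to 5.48, 5.46, 5.70 and 5.16, with 0 of 4 animals higher and a difference of -0.49 (unadjusted p = 0.0215, adjusted p = 0.311, limma). It passed in 6 of the 8 fits without 1 array, not without MYTHO D or scrmb B. In the regenerating-fibre list *Myog* was the only gene past an unadjusted p of 0.05, the same call as in the denervation list. The 4 genes not saturated had values of 0.33 to 0.71. In that list *Myh3*, embryonic myosin, differed by 0.71 (unadjusted p = 0.0736, and 0.0433 with the animal as a block).

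Among the marker lists, *Cdh15*, M-cadherin of satellite cells, was the only satellite-cell gene past an unadjusted p of 0.05, with a difference of 0.51 (adjusted p = 0.347, limma) and no overlap between groups, and an unadjusted p under 0.05 in 4 of 8 fits without 1 array (lost without MYTHO A, MYTHO B, scrmb A or scrmb C). *Pax7*, which defines satellite cells, had a difference of 0.00. Its probe set was dim, at percentile 10.1 of mean log2 signal, so a change may not be measurable on it. The 9 macrophage and blood genes had a median of -0.14, with 4 above 0 and 5 below. In that list *Ptprc*, the pan-leukocyte antigen CD45, was lower by a difference of -0.59 (unadjusted p = 0.029, adjusted p = 0.343) and passed in 3 of those fits (without MYTHO A, MYTHO C or scrmb D), while *Cd68*, a lysosomal protein of macrophages, had 0.54 (unadjusted p = 0.0882, and 0.0332 with the animal as a block, limma). None of the 9 Schwann-cell genes passed without the block and their median was -0.26. Of the 8 slow-fibre genes, 7 were higher at an unadjusted p under 0.05, beside 4.81% of all probe sets, with a median of 1.59. The remaining gene, *Myl2*, at 1.29, had an unadjusted p of 0.131, and of 0.0181 with the animal as a block. The 6 with the smallest p were *Tnni1* (2.44), *Tnnc1* (1.88), *Tpm3* (1.67), *Atp2a2* (1.51), *Myh7* (1.82) and *Tnnt1* (1.41), with adjusted p of 0.28 to 0.332, and each of them had an unadjusted p of 0.0794 to 0.102 with trended robust variances and of 0.00109 to 0.00363 with the animal as a block. Without MYTHO D, the array with low slow-fibre values, their differences were 2.02 to 3.44 with adjusted p of 0.099 to 0.111, and without scrmb A as well the adjusted p were 0.000335 to 0.0111. Both arrays were set aside for their slow-fibre values, so that both fits describe these genes and do not test them. Without 1 array an unadjusted p under 0.05 was kept in 7 of 8 fits for *Tnni1*, in 4 each for *Tnnc1* and *Tpm3*, in 3 for *Atp2a2* and in 2 each for *Myh7* and *Tnnt1*. Of the 9 fast-fibre genes 3 were saturated on all arrays and others lay just under the ceiling of 19.93, so no shift can be read from those. *Ckm* and *Eno3* lay farther below it, with differences of -0.03 and -0.27 (unadjusted p = 0.834 and 0.18, limma). *Eno3* was lower in 4 of 4 animals.

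**Figure D5:**
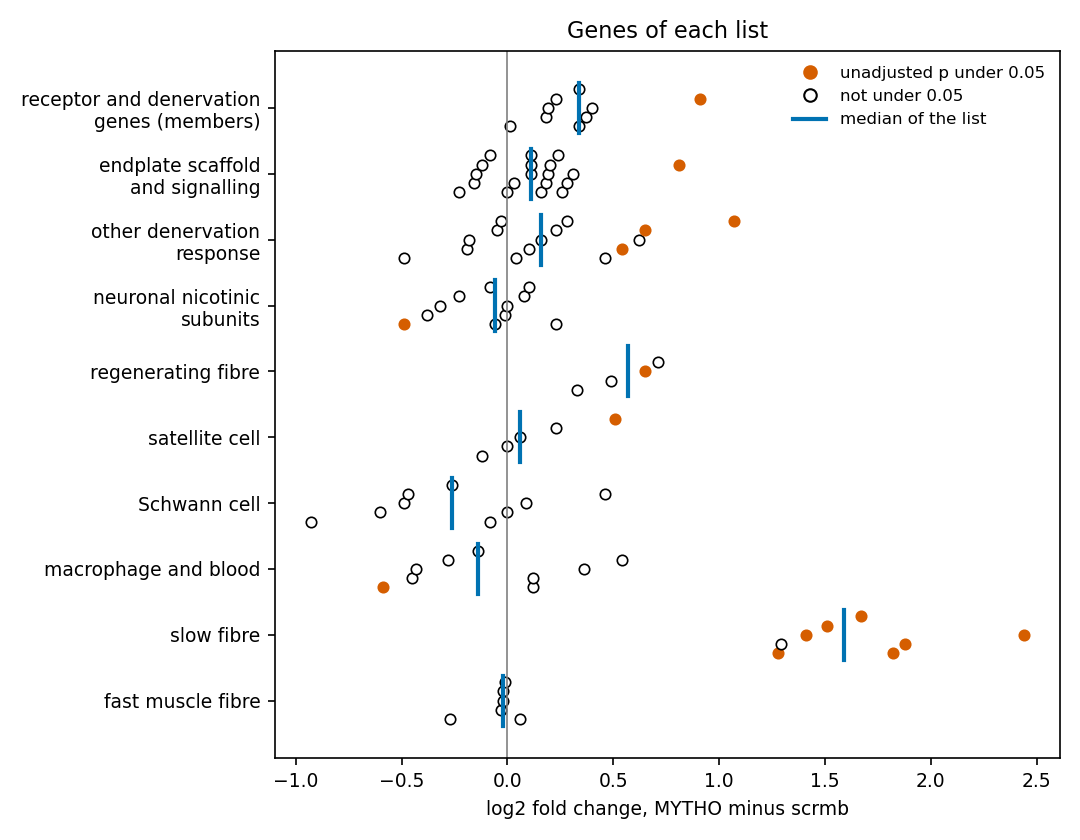
Log2 fold change, MYTHO minus scrmb, of each gene in the receptor and denervation group and in 9 other lists, with the list median as a blue bar and orange points for an unadjusted p under 0.05; genes saturated on all arrays are left out. The 9 receptor and denervation genes lie from 0.01 to 0.91, and the slow-fibre genes lie farthest from 0.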

How the data were processed

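Total RNA of 8 muscles, 4 per group, was hybridised to Clariom S Mouse arrays. The authors deposited gene-level log2 signals computed by SST-RMA with the Transcriptome Analysis Console 4.0.1 and annotation release 36 on mm10, after background correction, quantile normalization and summarising of probes. The authors' own fold and p columns were not used. Groups were compared here on the log2 signals with lmFit and eBayes of limma 3.58.1 in R 4.3.3, without a block, since the array paragraph of the methods names no pairing term (other measurements of paired muscles there used paired tests), and p-values were adjusted by Benjamini-Hochberg over 22206 probe sets. Exact permutation tests used scipy 1.17.1. The scripts were tested on simulated data. Array number, 4 per group, limits the precision.

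Both legs of an animal make a pair, known from the design text and the animal numbers in the columns. The deviations of paired arrays from their group means correlated at 0.00, -0.00, 0.13 and 0.09 in animals A to D. No column carries a replicate number from the sample titles, so these numbers pair nothing here.

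Members and lists were chosen with earlier results of these data known. Named were all 9 genes, *D230025D16Rik*, at most 6 genes per list with an unadjusted p under 0.05, *Myog* and *Hdac4*, and the 3 most alike genes for the 2 members with the largest SD. Other genes are named as examples of their list. Lists that hold *Mymk* and *Mymx* were matched through RefSeq synonyms. Alternatives were 8 fits that each left out 1 array and 8 others: quantile normalization, median centring, the upper 75% and 50% of probe sets by mean signal, trended robust variances, 1 probe set per symbol, no saturated probe sets, and the animal as a block. A further 2 were added after seeing the data, without both arrays of animal A and without scrmb A and MYTHO D.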

Additional observations from a re-analysis of the deposited data

Results flagged for a closer look

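In 10 of 72 groups of 4 arrays examined, 1 array stood apart, its gap to the nearest other array divided by the whole range exceeding Dixon's 95% critical value. Chance gives about 1 in 20. None of these groups belonged to the 9 receptor and denervation genes.

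MYTHO D stood below the other MYTHO arrays in 5 slow-fibre genes. Its log2 signal of *Myh7* was 11.58 against 14.68 to 15.13 (ratio 0.873) and that of *Tnnt1* was 12.06 against 14.26 to 14.71 (0.83). For *Tnni1* it was 9.25 against 12.99 to 13.39 (0.903), for *Tnnc1* 10.52 against 13.56 to 13.72 (0.95), and for *Atp2a2* 13.66 against 15.98 to 16.19 (0.917). The mean of the slow-fibre list was 11.68 there against 14.43 to 14.88 (0.859).

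In the scrmb group, array A stood above the others in *Myh7*, at 13.75 against 11.53 to 11.89 (0.838), and in the slow-fibre mean, at 13.70 against 11.61 to 11.94 (0.842). It stood below them in *Chrna6*, at 5.66 against 6.01 to 6.05 (0.897). For *D230025D16Rik*, MYTHO C was at 8.80 against 8.08 to 8.20 on the other MYTHO arrays (0.833). It remained below every scrmb array.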

How the results depend on the processing

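Under 16 other settings *D230025D16Rik* stayed lower, and *Chrna1* stayed higher with an unadjusted p of 0.000174 to 0.00435 without 1 array (differences of 0.82 to 1.08) and of 0.000594 to 0.0015 otherwise; its adjusted p ran from 0.0761 to 0.316. The replicate block by animal changed no call of the 9 genes. It moved the count of higher genes from 1 to 2 in the regenerating-fibre list, from 3 to 4 in the other denervation list and from 7 to 8 in the slow-fibre list. In that fit 4.94% of all probe sets were higher. Quantile normalization gave 2 of the 9 genes at an unadjusted p under 0.05, adding *Chrnd* (0.45), and 2 without overlap, beside 5.8% and 3.2% of all probe sets that were higher. With the upper 50% of probe sets, which leaves out *Chrng*, *Chrnd*, *Chrna6* and *Myog*, some counts fell because the genes called were no longer tested. The neuronal count of lower genes and the regenerating-fibre count of higher genes were 0, and the other denervation count was 2. Of the probe sets kept, 6.91% were higher.

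Leaving out 1 array, counts of the 9 genes ran from 1 to 2 for higher at an unadjusted p under 0.05 (2 without MYTHO A or MYTHO C, where 4.44% and 4.72% of all probe sets were), from 1 to 2 for no overlap (2 without MYTHO A, MYTHO C or scrmb D, beside 4.31%, 4.62% and 5.64%), and from 0 to 1 at the threshold of the study (1 without MYTHO D, beside 0.468%). Higher genes ran from 0 to 2 in the endplate list (0 without MYTHO B, MYTHO C, scrmb B or scrmb C, 2 without scrmb D), from 1 to 3 in the other denervation list (1 without MYTHO A, MYTHO B or scrmb C) with lower ones from 0 to 1 (without scrmb A, *Trim63*), and from 0 to 2 in the regenerating-fibre list (0 without MYTHO A, MYTHO B or scrmb C, 2 without MYTHO D). Lower neuronal genes ran from 0 to 2 (0 without MYTHO D or scrmb B, 2 without MYTHO A). Of all probe sets, 3.45% (without MYTHO B) to 5.65% (without scrmb D) were higher at an unadjusted p under 0.05 in these fits. Among the 9 genes, *Hdac4* and the list genes named for an unadjusted p under 0.05, 51 such fits of a gene lost that p and 2 gained it; over the 8 other settings 6 lost it, all slow-fibre genes with trended robust variances, and 1 gained it. Differences turned sign for *Chrng* without MYTHO A (-0.09), MYTHO B (-0.0008) or scrmb A (-0.12), with a range of -0.12 to 0.13, for *Hdac4* without MYTHO C (0.15), scrmb B (0.10) or scrmb D (0.10), with a range of -0.28 to 0.15, and for the gamma minus epsilon change without MYTHO D (0.003), with a range of -0.39 to 0.003. The cause was not tested.

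In the added fit without both arrays of animal A, 2 of the 9 genes were higher at an unadjusted p under 0.05 (4.26% of all probe sets) and 2 did not overlap (6.87%). In this fit 0 regenerating-fibre genes were higher, and the differences of *Chrng* (-0.22) and *Ncam1* (-0.04) turned sign. The gamma minus epsilon change was -0.56. Without scrmb A and MYTHO D, 1 of the 9 passed the threshold of the study (0.73% of all probe sets). In that fit 1 other denervation gene was lower and 2 regenerating-fibre genes were higher, beside 4.68% of all probe sets that were higher. The 6 slow-fibre genes named had adjusted p of 0.000335 to 0.0111 there (limma, the arrays having been chosen on such genes). *Chrng* (-0.003) and *Musk* (-0.03) turned sign. Dim probe sets such as that of *Chrng* limit what can be detected.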
